A study of Mus musculus with 12 samples.

Results

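The clustered protocadherins are the genes of the Pcdha, Pcdhb and Pcdhg clusters, which lie side by side on mouse chromosome 18. All rows of the deposited gene table on that chromosome whose GENCODE M21 symbol starts with Pcdha, Pcdhb or Pcdhg were taken, which gave 58 of 43346 genes: 14 Pcdha, 22 Pcdhb and 22 Pcdhg members. Their RNA was read in 4 groups of 3 RNA-seq libraries, 12 in all, made from embryonic stem cells of the mouse. B6 is the inbred strain C57BL/6J and D2 is the inbred strain DBA/2J. B6-13D2 (laboratory name QJ, B6.D2-(rs30079041-rs51756099)/Bakr) is a congenic strain with the D2 segment of chromosome 13 on the B6 background, and D2-13B6 (XE, D2.B6-(rs29224292-rs13469455)/Bakr) is the reciprocal strain. The series design text gives rs51756099 as the far end of the D2-13B6 segment. All groups grew in serum medium with LIF, the MEK inhibitor PD0325901 and the GSK3 inhibitor CHIR99021, and no age or treatment separates them.

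The titles call the 3 libraries of a group technical replicates, whereas the protocol describes separate cultures from 1 cell line per strain. The p-values therefore measure only the spread between these libraries, which may be technical, and strain and line cannot be told apart. Against the protocol, the labels give B6 replicate 3 another line name (B6 4-1) than the other B6 libraries (B6 5-1), and they name the D2 line in more than 1 way. The molecule field of the labels names genomic DNA, although the protocol and series type are of RNA. Column names of the congenic libraries carry a prefix that the parental columns lack, so a batch along that divide and the difference between congenic and parental strains cannot be told apart. Library totals ranged from 22184196 to 36411799 expected counts. CPM below are expected counts scaled to a common library total, with TMM-scaled library sizes.

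Clustered protocadherins are cell-surface adhesion proteins of the cadherin superfamily. In the Pcdha and Pcdhg clusters each variable first exon has its own promoter and is spliced to constant exons shared by the whole cluster, so the members differ outside the cell and share their inner end. The Pcdhb genes are single-exon genes without a constant part. Neurons choose a few alternate members each, by promoter choice that involves CTCF, cohesin-mediated looping and DNA methylation, and the encoded proteins pair with like proteins on other cells, which lets a neuron tell its own branches from those of others. The C-type members at the end of the Pcdha and Pcdhg clusters are regulated differently from the alternate members.

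On GRCm38 the clusters span chromosome 18 from 36930184 to 37187661 (Pcdha), from 37264938 to 37524479 (Pcdhb) and from 37661793 to 37841873 (Pcdhg), all on the plus strand. The annotation has 2 genes named Pcdha11, ENSMUSG00000007440 and ENSMUSG00000102206. Pcdhgb8 is annotated as a polymorphic pseudogene and every other member as protein coding. The shared constant exons decide how firmly a single member can be counted. In Pcdha, 38.0% to 54.9% of a member's exonic bases were also exonic in another member, and in Pcdhg 27.8% to 66.8%. In Pcdhb the share was 0 for all but Pcdhb21 (9.67%) and Pcdhb22 (6.88%), which overlap each other. Windows of 100 exonic bases found in no other member made up 43.3% to 58.4% of a Pcdha member, 37.3% to 74.1% of a Pcdhg member and 92.3% to 100% of a Pcdhb member.

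The deposited values show the same divide. EMASE, the method named by the table's title, splits a read that fits several genes among them, which leaves counts that are not whole. Of the values above 0, 210 of 216 (97.2%) were whole to within 1e-06 in Pcdhb, against 1 of 84 (1.19%) in Pcdha and 0 of 264 in Pcdhg. Values of single Pcdha and Pcdhg members therefore rest in part on that division, whereas a cluster's sum does not depend on how reads were split among its own members. Other annotated genes overlap the clusters too. Gm38182, a processed transcript that shares exons with all 22 Pcdhg members, held 0.468 to 8.78 CPM per library. The read-through genes Gm42416, Gm37013 and Gm37388 held at most 0.153 CPM. The antisense gene BC037039 over Pcdhgc3 held 1.29 to 3.93 CPM, and without stated strand use its reads and those of Pcdhgc3 cannot be told apart.

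The summed expression of all 3 clusters was highest in D2 and lowest in B6-13D2. The Pcdhg sum was 387.7 ± 16.8 CPM in D2 (SD, n = 3 in every group), 278.2 ± 9.53 in B6, 236.9 ± 8.20 in D2-13B6 and 151.0 ± 2.01 in B6-13D2. Its libraries read 402, 391.8 and 369 CPM in D2, 288, 277 and 269 in B6, 241, 242 and 227 in D2-13B6 and 149, 153 and 151 in B6-13D2. The groups did not overlap.

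The Pcdhb sum was 22.7, 22.8 and 20.7 CPM in the D2 libraries, 14.6, 14.8 and 13.97 in B6, 11.97, 12.6 and 12.7 in D2-13B6 and 4.36, 4.93 and 4.56 in B6-13D2, again without overlap. For Pcdha the libraries held 14.7, 11.95 and 11.6 CPM in D2, 8.78, 9.58 and 7.50 in B6, 8.12, 7.67 and 6.71 in D2-13B6 and 2.94, 2.92 and 2.94 in B6-13D2. Here B6 and D2-13B6 overlapped, and D2 stood above and B6-13D2 below all other libraries.

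As ratios of group means, D2 exceeded B6 by 1.48-fold in Pcdha, 1.53-fold in Pcdhb and 1.39-fold in Pcdhg. B6-13D2 was 2.94-fold, 3.13-fold and 1.84-fold below B6 in the same order. D2-13B6 was 1.70-fold, 1.78-fold and 1.64-fold below D2. B6 exceeded D2-13B6 by 1.15-fold, 1.16-fold and 1.17-fold. Both congenic groups, which carry opposite alleles of the segment, were thus below the parental strain of their background in CPM.

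**Figure D1:**
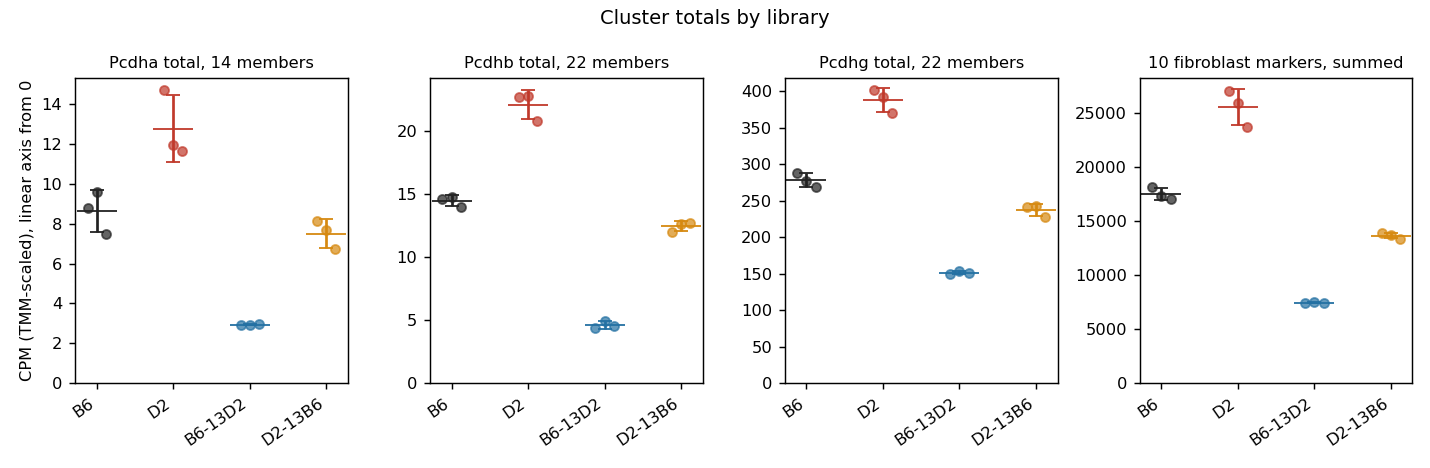
Summed CPM of the 14 Pcdha, 22 Pcdhb and 22 Pcdhg members and of 10 fibroblast markers (y axes, linear from 0) in the 3 libraries of each group (points), with the group mean and SD (lines). In every panel D2 is highest and B6-13D2 lowest; the Pcdhg groups do not overlap.

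Fibroblast markers moved with the clusters. The cells are labelled embryonic stem cells and the labels name no feeder cells. The 8 stem cell markers (Pou5f1, Nanog, Sox2 and others) summed to 3120 ± 47.0 CPM in D2, 4433 ± 195 in B6, 3883 ± 34.4 in D2-13B6 and 5015 ± 185 in B6-13D2. Called stem cell markers numbered 7 for D2 against B6, all lower, and 6 for D2-13B6 against D2, all higher. For B6-13D2 against B6, 7 were higher and 1, Klf4, was lower. Klf4 fell there from 417.8 ± 3.42 to 321.7 ± 11.4 CPM, against the direction of the sum. Between D2 and D2-13B6 its mean barely differed (272.9 ± 5.09 and 276.2 ± 7.48 CPM). The 10 fibroblast markers (Col1a1, Col1a2, Col3a1, Thy1, Vim, Pdgfra, Pdgfrb, Fn1, Postn and Acta2) were all present, none at 0. They summed to 23708 to 26996 CPM in D2, 17046 to 18132 in B6, 13362 to 13888 in D2-13B6 and 7376 to 7463 in B6-13D2. All 10 were called higher in D2 than in B6, all 10 lower in B6-13D2 than in B6, and 9 of 10 lower in D2-13B6 than in D2. The 1 marker not called in D2-13B6, Pdgfra, had a slightly higher mean there, 7.43 ± 0.248 CPM against 6.84 ± 0.177 for D2. Over all tested genes, the shares called in those directions were 29.8%, 32.9% and 29.7% in the same order. In the test of whether the segment effect differs by background, described with the members below, all 10 markers were called lower as well. Their median there was -2.44 on the log2 scale (range -2.89 to -0.85), and the share of all tested genes called lower was 33.4%. The marker sum was 1.46-fold higher in D2 than in B6, 2.36-fold lower in B6-13D2 than in B6 and 1.87-fold lower in D2-13B6 than in D2, in the same order as the protocadherin sums. In bulk RNA, fewer cells of a type and less RNA per cell cannot be told apart.

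Set against the fibroblast markers of the same library, the differences between the clusters' group means shrank or turned. Per 1000 CPM of summed markers, the Pcdhg total was 15.2 ± 0.346 in D2, 15.9 ± 0.112 in B6, 17.3 ± 0.314 in D2-13B6 and 20.3 ± 0.265 in B6-13D2, so that B6-13D2 was the highest group. The Pcdhb total was 0.865 ± 0.0214 in D2, 0.826 ± 0.0243 in B6, 0.910 ± 0.0443 in D2-13B6 and 0.622 ± 0.0376 in B6-13D2, which was still the lowest group. The Pcdha total was 0.499 ± 0.0419 in D2, 0.493 ± 0.0575 in B6, 0.549 ± 0.0421 in D2-13B6 and 0.395 ± 0.00398 in B6-13D2. The marker sum is weighted toward its most abundant genes, which did not fall alike. From B6 to B6-13D2, Fn1 went from 4789 ± 105 to 3288 ± 39.9 CPM and Col1a1 from 6425 ± 348 to 2092 ± 37.5. Ratios to the sum, here and below, therefore depend on the markers chosen. The part of the fibroblast markers in the results below was not tested.

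Of the 58 members, 36 passed the filter on low counts: 3 Pcdha, 11 Pcdhb and all 22 Pcdhg. The 22 others averaged at most 0.122 CPM (Pcdhb15), while the lowest tested member averaged 0.257 CPM (Pcdhb2). Of those tested, 3 passed only through the libraries of a single group, Pcdha11 (ENSMUSG00000007440) and Pcdhb2 through D2 and Pcdhb5 through B6, so calls in which that group is the higher one follow in part from the filter. All Pcdhg members had at least 10 expected counts in every library, against 2 Pcdhb members (Pcdhb17 and Pcdhb22) and 1 Pcdha member (Pcdhac2). A member is called higher or lower where the edgeR test gave an adjusted p under 0.05 over all 17148 genes tested.

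In D2 against B6, 21 members were called higher (1 Pcdha, 3 Pcdhb and 17 Pcdhg) and none lower, against a background of 29.8% of all tested genes called higher and 30.3% lower. The Pcdhg members had a median log2 fold change of 0.59, from 0.20 to 0.87, while the median of all genes was 0.012. In B6-13D2 against B6, 29 were called lower (2 Pcdha, 10 Pcdhb and 17 Pcdhg) and 2 higher, against 32.9% lower and 25.4% higher in the background. The Pcdhg median was -1.19, with a range from -1.74 to 3.28. In D2-13B6 against D2, 25 were called lower (2, 7 and 16) and none higher, against 29.7% lower and 27.6% higher in the background, and the Pcdhg median was -0.65. The absent directions, lower in D2 against B6 and higher in D2-13B6 against D2, held 0 members in edgeR also at an unadjusted p under 0.05, and 0 in DESeq2.

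The fourth comparison tested whether the D2 segment, relative to the B6 segment, acts differently on the B6 and D2 backgrounds. Algebraically it sets both congenic groups against both parental groups. It called 31 members lower (3, 11 and 17) and 1 higher, against 33.4% lower and 31.1% higher in the background. The first 3 comparisons share libraries with this one, and D2 against B6 shares a parental group with each congenic comparison, so they are not independent of each other.

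With a log2 fold change of at least 1 in size required as well, 1 member was higher in D2 than in B6 (background 5.59%). Under that rule 25 were lower and 1 higher in B6-13D2 (background 11% and 3.45%) and 7 were lower in D2-13B6 (background 4.79%), and for the difference of the segment effect 30 were lower and 1 higher (background 16.4% and 9.2%). Members called lower in both congenic comparisons numbered 24 of the 36 tested (2 Pcdha, 7 Pcdhb and 15 Pcdhg), against 19.8% of all tested genes. None was called with opposite signs in these comparisons, the pattern of a gene that follows the allele of the segment. Of all tested genes 7.33% showed that pattern, a share so small that nothing is read from its absence among 36 members. D2 had the highest and B6-13D2 the lowest mean for 31 of the tested members (background 23.8%). Every B6-13D2 library lay below all other libraries for 26 of them (background 23.8%), and every D2 library above all others for 23 (background 17.9%). The 5 tested exceptions to the order of means were Pcdhb5, Pcdhga11, Pcdhgb8, Pcdhga12 and Pcdhgc4.

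**Figure D2:**
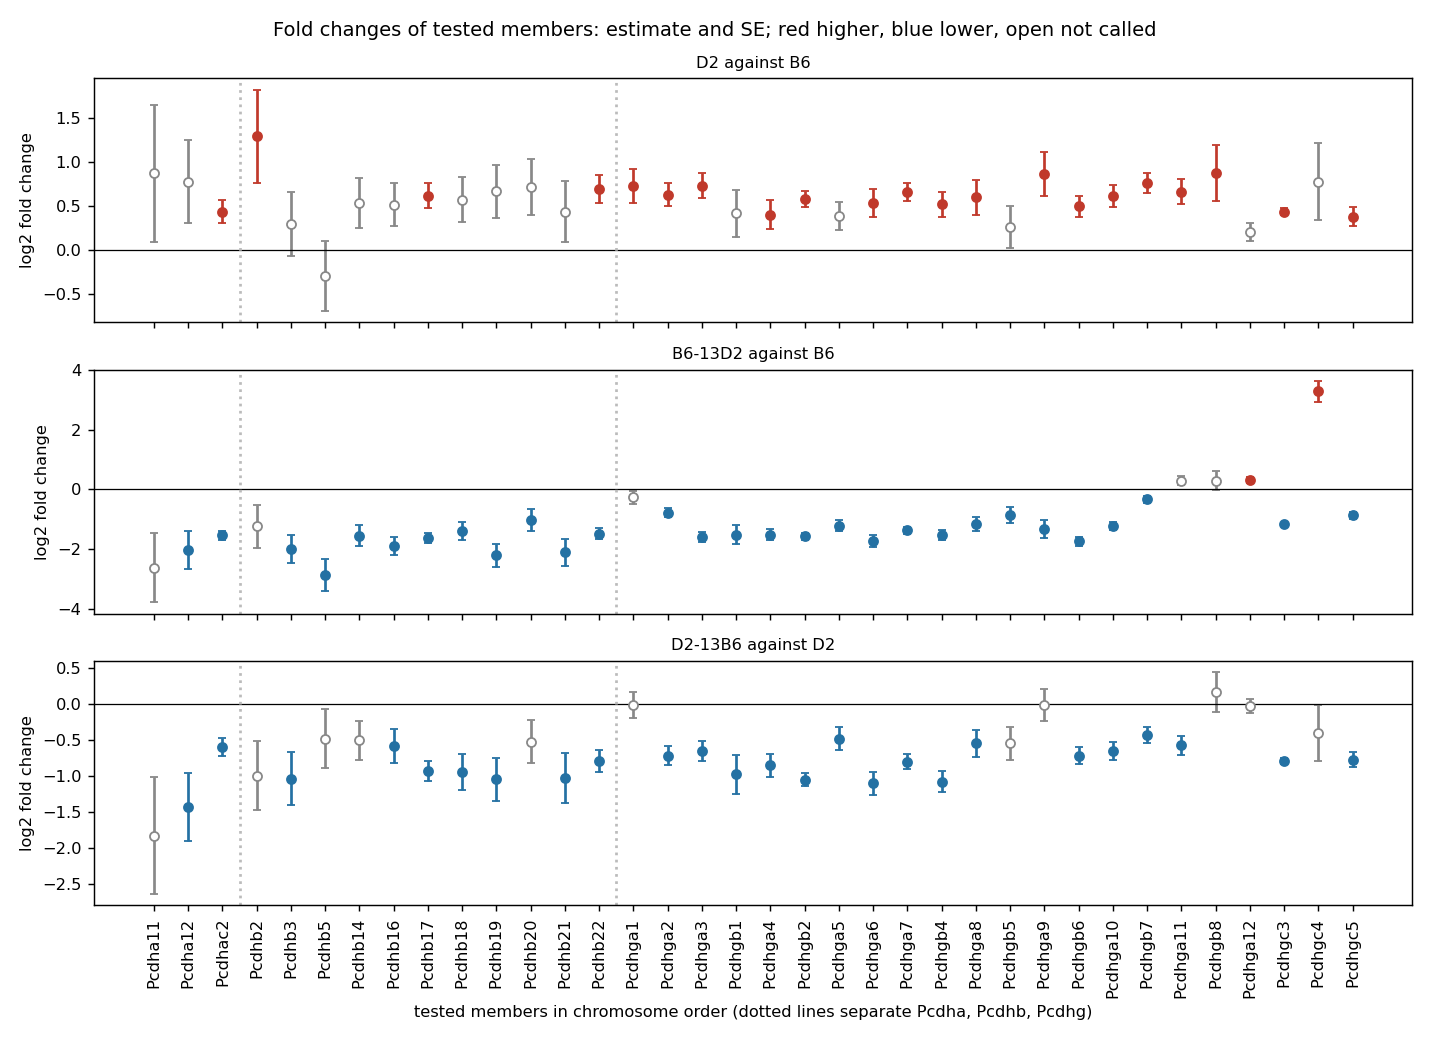
Log2 fold change with its standard error (y axis) of the 36 tested members in chromosome order (x axis) in 3 comparisons; red points were called higher, blue points lower, open points not called. Most Pcdhg members are raised in D2 and lowered in both congenic groups, and Pcdhgc4 stands apart in B6-13D2 against B6 at 3.28.

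Pcdha was the least expressed cluster, and most of it was Pcdhac2, a C-type member at its end, which held 72.4% to 92.1% of the cluster's reads per library. Pcdhac2 (ENSMUSG00000102697) was at 11.995, 9.27 and 8.42 CPM in D2, 7.80, 7.61 and 6.52 in B6, 7.08, 6.80 and 5.53 in D2-13B6 and 2.71, 2.27 and 2.57 in B6-13D2. D2 lay above and B6-13D2 below every other library, while B6 and D2-13B6 overlapped. The log2 fold change was 0.44 ± 0.13 (SE, adjusted p = 0.00741) in D2 against B6, a call that was lost without D2 replicate 1. It was -1.54 ± 0.15 (adjusted p = 1.1e-07) for B6-13D2 against B6 and -0.60 ± 0.12 (adjusted p = 0.00046) for D2-13B6 against D2.

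The other C-type member, Pcdhac1, was at 0 in 11 of 12 libraries, with 2.133 expected counts in D2 replicate 2. The 12 alternate members together made up 2.84 ± 0.318 CPM in D2, 1.31 ± 0.578 in B6, 1.03 ± 0.151 in D2-13B6 and 0.417 ± 0.211 in B6-13D2. Pcdha12 (ENSMUSG00000103310) read 0.836, 1.15 and 0.762 CPM in D2, 0.211, 0.670 and 0.711 in B6, 0.436, 0.293 and 0.259 in D2-13B6 and 0.155, 0 and 0.245 in B6-13D2. It was called lower in B6-13D2 (log2 fold change -2.02 ± 0.63) and in D2-13B6 (-1.44 ± 0.47). Leaving out 1 library gave -2.91 to -1.42 for the former, and the latter call was lost without D2 replicate 2, D2-13B6 replicate 2 or D2-13B6 replicate 3. Pcdha11 (ENSMUSG00000007440) varied from 0 to 1.05 CPM within B6 and was called in none of the first 3 comparisons.

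Pcdhb reads came mostly from the downstream end of the cluster. Pcdhb14 to Pcdhb22 held 86.4% to 93.4% of the cluster's reads in each library, a stretch chosen after its values were seen. Per kilobase of exon, Pcdhb17 (0.789 CPM per kb over all libraries) and Pcdhb22 (0.473) were the highest members of the cluster. Because Pcdhb reads are nearly all unique, these values rest little on the division among shared exons.

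Pcdhb17 (ENSMUSG00000046387) was at 6.37, 6.31 and 5.82 CPM in D2, 4.00, 4.45 and 3.64 in B6, 3.12, 3.54 and 3.03 in D2-13B6 and 1.42, 1.54 and 0.905 in B6-13D2. No group overlapped another. It was called higher in D2 than in B6 (log2 fold change 0.62 ± 0.14, adjusted p = 0.00113), lower in B6-13D2 (-1.63 ± 0.17, adjusted p = 2.3e-07) and lower in D2-13B6 than in D2 (-0.93 ± 0.14, adjusted p = 1.6e-05). Pcdhb22 (ENSMUSG00000073591) read 5.69, 5.61 and 4.13 CPM in D2, 3.69, 3.23 and 2.74 in B6, 2.88, 2.89 and 3.16 in D2-13B6 and 0.934, 1.24 and 1.28 in B6-13D2. D2 was again the highest group and B6-13D2 the lowest, with B6 and D2-13B6 overlapping. Its log2 fold changes were 0.69 ± 0.16, -1.48 ± 0.19 and -0.80 ± 0.15 in the same comparisons, all called.

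Other named Pcdhb members rested on fewer reads. Pcdhb19 read 1.67, 2.08 and 2.32 CPM in D2, 1.27, 1.22 and 1.33 in B6, 1.12, 0.664 and 1.16 in D2-13B6 and 0.104, 0.201 and 0.528 in B6-13D2. It was called lower in both congenic groups (-2.21 ± 0.40, from -3.02 to -1.82 with 1 library left out, and -1.05 ± 0.30), and its 0.67 ± 0.30 in D2 against B6 was not called (adjusted p = 0.0652). Pcdhb16 was called lower in B6-13D2 at -1.89 ± 0.31 and in D2-13B6 against D2 at -0.59 ± 0.24, the latter call lost without D2 replicate 1, without D2-13B6 replicate 2 or 3, without the low-count filter and in DESeq2. Pcdhb20 was called lower in B6-13D2 than in B6 (-1.03 ± 0.37), and not without B6 replicate 3, B6-13D2 replicate 1 or B6-13D2 replicate 2, nor in DESeq2.

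Pcdhb5 was the tested Pcdhb member whose highest mean was not in D2. It read 0.250, 0.472 and 0.364 CPM in D2, 0.439, 0.419 and 0.514 in B6, 0.192, 0.332 and 0.272 in D2-13B6 and 0.0346, 0.101 and 0.0377 in B6-13D2. B6 and D2 overlapped, and the B6-13D2 libraries held 1, 3 and 1 reads. The log2 fold change in B6-13D2 against B6 was -2.87 ± 0.54. Since Pcdhb5 entered the test only through its B6 libraries, the higher group here, that value is a description and its call supports nothing. Pcdhb2, the member with the highest called fold change in D2 against B6 (1.29 ± 0.53, adjusted p = 0.0458), rested on 0.129 to 0.294 CPM in B6 and 0.417 to 0.546 in D2, and that call was lost under 12 of the alternatives. The same limit holds for Pcdhb2, which entered only through its D2 libraries.

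**Figure D3:**
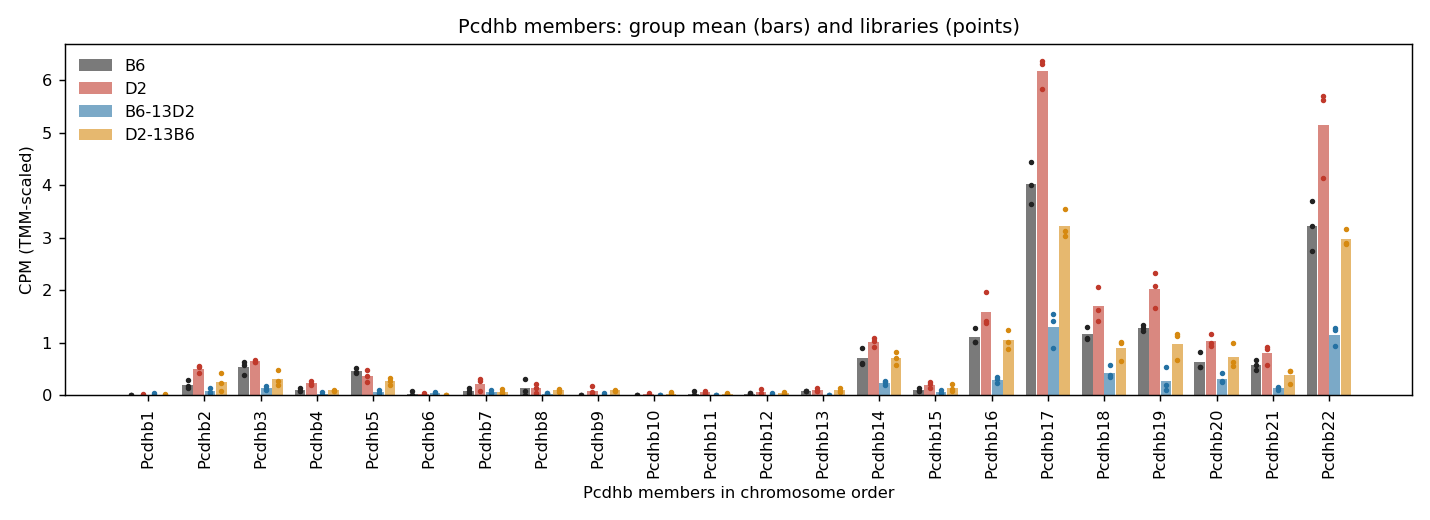
CPM (y axis, linear from 0) of the 22 Pcdhb members in chromosome order (x axis), with bars for group means and points for the 3 libraries of each group. Reads come mainly from Pcdhb14 to Pcdhb22, with Pcdhb17 and Pcdhb22 highest, and B6-13D2 is the lowest group for all but 1 of the 11 tested members in every library.

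Pcdhg was by far the most expressed cluster, and a single C-type member, Pcdhgc3, held 46.7% to 59.6% of its reads. Per kilobase of exon, Pcdhgc3 stood at 26.7 CPM per kb over all libraries, against 1.88 for Pcdhga12 and 1.80 for Pcdhgb2. Pcdhgc3 (ENSMUSG00000102918) was at 229, 228 and 209 CPM in D2, 169.7, 165 and 158 in B6, 134, 128 and 121 in D2-13B6 and 72.7, 71.5 and 74.7 in B6-13D2. No library of one group reached another group. The log2 fold change was 0.44 ± 0.044 in D2 against B6 (adjusted p = 1.6e-07), -1.17 ± 0.046 for B6-13D2 against B6 (adjusted p = 3.5e-13) and -0.80 ± 0.044 for D2-13B6 against D2 (adjusted p = 5.6e-11).

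Per 1000 CPM of summed fibroblast markers, Pcdhgc3 was 8.70 ± 0.190 in D2, 9.39 ± 0.134 in B6, 9.34 ± 0.289 in D2-13B6 and 9.83 ± 0.276 in B6-13D2. The largest group mean on that scale was B6-13D2, the group with the lowest CPM. The other Pcdhg members summed to 166 ± 6.55 CPM in D2, 114 ± 4.00 in B6, 109 ± 4.60 in D2-13B6 and 78.0 ± 3.06 in B6-13D2. D2 was again the highest group and B6-13D2 the lowest. That sum may still hold reads from Pcdhgc3, since 38.5% of its exonic bases are shared with another member.

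Pcdhgc5, the last C-type member, behaved like the cluster as a whole. It read 14.4, 12.5 and 12.7 CPM in D2, 10.2, 10.9 and 9.16 in B6, 7.89, 7.43 and 7.72 in D2-13B6 and 4.37, 5.87 and 6.33 in B6-13D2, with no overlap between groups. Its log2 fold changes were 0.38 ± 0.10, -0.87 ± 0.12 and -0.77 ± 0.10, all called.

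Pcdhgc4 (ENSMUSG00000023036), which lies between these C-type members, rose in B6-13D2 against B6 and was called in neither of the other direct comparisons; the difference of the segment effect was itself called (2.87 ± 0.54, adjusted p = 0.000158). Its libraries held 2.42, 1.77 and 2.41 CPM in D2, 1.83, 0.777 and 1.17 in B6, 1.90, 1.44 and 1.53 in D2-13B6 and 11.6, 18.9 and 6.126 in B6-13D2. All B6-13D2 libraries were above every other library, but they also differed most among themselves. Behind them stood 334, 564 and 162 expected counts, against 18.5 to 69.3 in the other libraries. As a share of Pcdhg reads Pcdhgc4 made up 4.06% to 12.3% in B6-13D2, 0.281% to 0.652% in the parental groups and 0.596% to 0.787% in D2-13B6.

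Leaving out any 1 library kept the Pcdhgc4 fold change in B6-13D2 between 2.81 and 3.65 on the log2 scale, called each time. It was not called in D2 against B6 (0.77 ± 0.44, adjusted p = 0.137) or in D2-13B6 against D2 (-0.41 ± 0.39, adjusted p = 0.389). Against the fibroblast markers, its ratio in B6-13D2 was 22.9 times that in B6. Windows of 100 bases found in no other member made up 63.8% of Pcdhgc4, against 63.2% of Pcdhgc3.

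**Figure D4:**
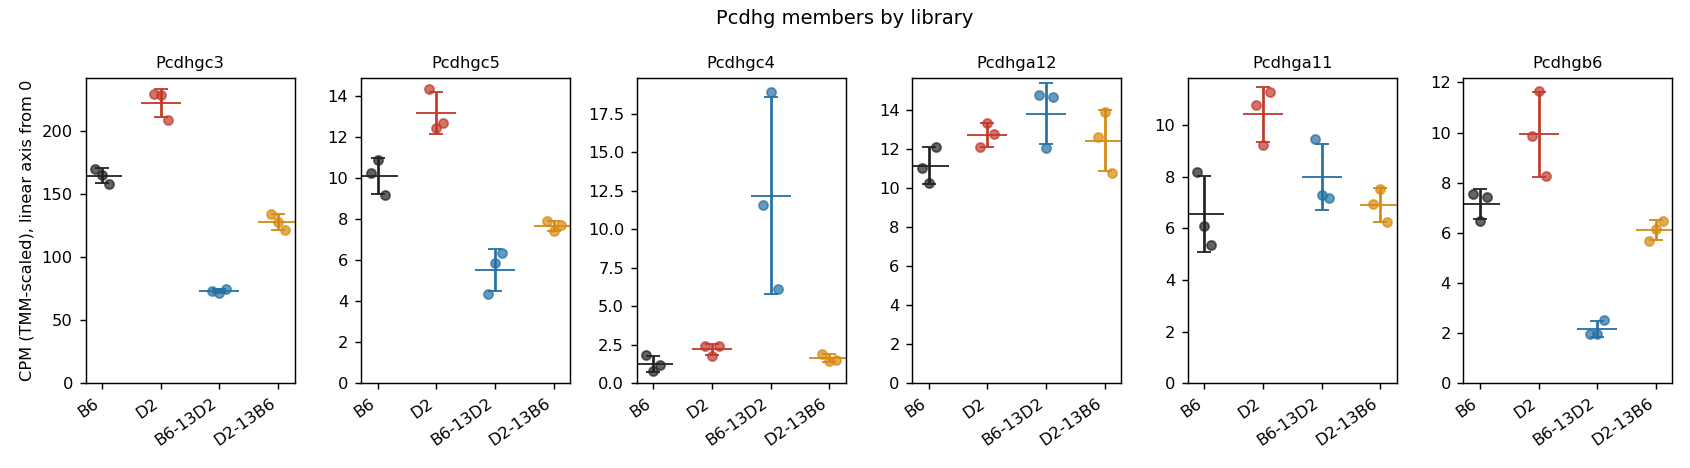
CPM (y axes, linear from 0, a different scale in each panel) of 6 Pcdhg members in the 3 libraries of each group (points), with the mean and SD (lines). Pcdhgc3, Pcdhgc5 and Pcdhgb6 are lowest in B6-13D2, whereas Pcdhgc4 is highest there at 6.126 to 18.9, and Pcdhga12 differs little between groups.

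The 19 alternate Pcdhg members were called lower in B6-13D2 than in B6 except at both ends of their row. Pcdhgb6 had the lowest value of the cluster in that comparison. It read 9.87, 11.7 and 8.28 CPM in D2, 7.54, 6.46 and 7.43 in B6, 5.67, 6.16 and 6.47 in D2-13B6 and 1.96, 1.96 and 2.51 in B6-13D2. Its log2 fold change was -1.74 ± 0.15 (adjusted p = 1.6e-08) in B6-13D2, 0.49 ± 0.12 for D2 against B6 and -0.72 ± 0.12 for D2-13B6 against D2. Pcdhga6 had the lowest value in D2-13B6 against D2 at -1.10 ± 0.16 (adjusted p = 1.2e-05). It fell from 3.81, 3.47 and 2.76 CPM in B6 to 1.10, 0.819 and 1.13 in B6-13D2, and from 4.33, 5.35 and 4.77 in D2 to 2.43, 1.95 and 2.39 in D2-13B6.

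Toward the downstream end of the alternate row the fall in B6-13D2 was smaller or missing. Pcdhga12 (ENSMUSG00000102428), the last alternate member, read 12.1, 13.3 and 12.7 CPM in D2, 11.04, 10.2 and 12.1 in B6, 12.6, 13.9 and 10.8 in D2-13B6 and 14.7, 12.03 and 14.6 in B6-13D2. All 4 groups overlapped with at least one other, yet it was called higher in B6-13D2 than in B6 (0.31 ± 0.10, adjusted p = 0.0136). That call was lost without B6 replicate 2, B6-13D2 replicate 1 or B6-13D2 replicate 3. Its values in D2 against B6 (0.20 ± 0.10) and D2-13B6 against D2 (-0.034 ± 0.097) were not called.

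Its upstream neighbours lay between these patterns. Pcdhgb8 read 3.32, 3.86 and 5.14 CPM in D2, 2.32, 3.47 and 0.866 in B6, 4.38, 4.91 and 4.45 in D2-13B6 and 2.77, 1.81 and 3.66 in B6-13D2. It was called higher in D2 than in B6 (0.87 ± 0.31, adjusted p = 0.0232), a call lost without B6 replicate 3 (0.48) or D2 replicate 3 and in DESeq2, and was called in no congenic comparison. Pcdhga11, named after its values were seen, had 0.29 ± 0.15 in B6-13D2 against B6, not called (adjusted p = 0.100), was called higher in D2 than in B6 at 0.66 ± 0.14 and was called lower in D2-13B6 than in D2 at -0.58 ± 0.13.

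Pcdhgb7 was called higher in D2 than in B6 at 0.76 ± 0.12 and lower in B6-13D2 than in B6 at -0.34 ± 0.13 (adjusted p = 0.0290), the latter call lost without B6 replicate 1, B6 replicate 3, B6-13D2 replicate 1 or B6-13D2 replicate 2, with RLE size factors, with the compared libraries alone and in DESeq2. It was called lower in D2-13B6 than in D2 (-0.43 ± 0.11, adjusted p = 0.00221). At the upstream end, Pcdhga1 (also named after its values were seen) was not called in B6-13D2 against B6 (-0.27 ± 0.21) or in D2-13B6 against D2 (-0.015 ± 0.18), and was called higher in D2 than in B6 (0.73 ± 0.20, adjusted p = 0.00406).

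Summed over stretches chosen after the values were seen, the 5 members from Pcdhga10 to Pcdhga12 made up 11.4% to 12.2% of Pcdhg reads in B6, 11.5% to 13.6% in D2, 19.1% to 22.7% in B6-13D2 and 15.5% to 17.3% in D2-13B6. The CPM of the stretch did not rise in the congenic groups. It was 33.0 ± 1.85 in B6 and 32.2 ± 2.59 in B6-13D2, and 48.4 ± 3.01 in D2 and 38.2 ± 3.26 in D2-13B6. Pcdhga10 itself had no part in the rise in share in B6-13D2. It made up 2.64% ± 0.217 of Pcdhg reads in B6 and 2.07% ± 0.396 in B6-13D2, and was called lower there (-1.23 ± 0.15). The 14 members from Pcdhga1 to Pcdhgb6 made up 25.8% to 26.7% in D2, 24.7% to 25.5% in B6, 24.9% to 27.0% in D2-13B6 and 17.8% to 20.0% in B6-13D2. Per 1000 CPM of fibroblast markers the downstream stretch was at 1.90 ± 0.195 in D2, 1.88 ± 0.0523 in B6, 2.80 ± 0.217 in D2-13B6 and 4.34 ± 0.365 in B6-13D2. The upstream stretch was at 3.99 ± 0.0561 in D2, 3.98 ± 0.0471 in B6, 4.53 ± 0.184 in D2-13B6 and 3.78 ± 0.273 in B6-13D2. The downstream stretch thus had a ratio to these markers that was higher in both congenic groups than in either parental group, while the upstream stretch differed less.

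Other protocadherins and related cadherins outside the clusters were examined beside the members. Of 15 on the list, 12 were tested, and 9 were called higher and 2 lower in D2 than in B6. The B6-13D2 group had 8 lower and 2 higher than B6, and the D2-13B6 group 7 lower and 2 higher than D2. Their medians were 0.66, -1.40 and -0.93 on the log2 scale, against 0.012, -0.035 and 0 for all genes. For these and the lists that follow, the share of all tested genes called higher and lower was 29.8% and 30.3% in D2 against B6, 25.4% and 32.9% for B6-13D2 against B6, and 27.6% and 29.7% for D2-13B6 against D2. Pcdh9 had the largest value of the list, a difference of the segment effect between backgrounds of -3.47 ± 0.32 (adjusted p = 3.6e-08), with mean levels of 3.59 ± 0.592 CPM in D2, 1.99 ± 0.455 in B6, 1.34 ± 0.0454 in D2-13B6 and 0.478 ± 0.109 in B6-13D2.

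Genes of chromatin looping and DNA methylation, which act on clustered protocadherin promoters in neurons, were also read. Of 12 looping and cohesin genes, 8 were lower and 1 higher in D2 than in B6, 3 lower and 1 higher in B6-13D2 than in B6, and 2 lower and 4 higher in D2-13B6 than in D2. Their medians were -0.27, 0.0064 and 0.070. The counts in the congenic comparisons lay near or below the shares of all genes. Wiz, which encodes a zinc finger protein that works with histone methyltransferases and in looping, had the largest value at -0.48 ± 0.046 in D2 against B6 (114 ± 1.98 CPM in B6 and 82.1 ± 4.17 in D2).

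Of 15 genes of DNA methylation and repression, 4 were higher and 8 lower in D2 than in B6, 6 higher and 4 lower in B6-13D2 than in B6, and 10 higher and 1 lower in D2-13B6 than in D2. Against the shares of all genes, the 4 higher in D2 and the 4 lower in B6-13D2 were no departure. Dnmt3l, a cofactor of de novo DNA methylation, had the largest value, with a difference of the segment effect between backgrounds of 1.14 ± 0.058. It stood at 173 ± 3.29 CPM in D2, 80.6 ± 4.89 in B6, 237 ± 7.16 in D2-13B6 and 129.9 ± 2.71 in B6-13D2, an order unlike that of the protocadherin sums.

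Among 11 genes encoding partners of clustered protocadherins inside the cell, 5 were higher and 2 lower in D2 than in B6, 2 higher and 5 lower in B6-13D2 than in B6, and 3 higher and 6 lower in D2-13B6 than in D2. The kinase gene Fyn had the largest value, a difference of the segment effect of -1.12 ± 0.091, from 43.0 ± 3.11 CPM in D2, 27.8 ± 1.93 in B6, 31.6 ± 0.581 in D2-13B6 and 17.4 ± 1.15 in B6-13D2. Primitive endoderm markers summed to 106 ± 1.23 CPM in D2, 86.0 ± 1.43 in B6, 89.0 ± 2.504 in D2-13B6 and 96.2 ± 1.97 in B6-13D2, with Sox7 and Foxa2 under 1 CPM throughout. Their directions were mixed: of 7 tested, 4 were higher and 1 lower in D2 than in B6, 1 higher and 3 lower in B6-13D2 than in B6, and 2 higher and 2 lower in D2-13B6 than in D2.

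Genes around the clusters were called in both directions. Of 39 tested neighbours within 1 Mb, 10 were higher and 9 lower in D2 than in B6, 11 higher and 9 lower in B6-13D2 than in B6, and 13 higher and 6 lower in D2-13B6 than in D2. Their medians were -0.072, 0.017 and 0.093 on the log2 scale. Most of these counts were near the shares of all genes or below them, so nothing particular to the region is read from them. Taf7, a general transcription factor gene between the Pcdhb and Pcdhg clusters, was at 109 ± 5.01 CPM in D2, 150.3 ± 6.20 in B6, 129 ± 1.45 in D2-13B6 and 146 ± 1.41 in B6-13D2. It was called lower in D2 than in B6 (-0.46 ± 0.039), not called in B6-13D2 (-0.042 ± 0.038) and called higher in D2-13B6 than in D2 (0.24 ± 0.039). Slc25a2, also between the clusters, averaged 0.328 to 0.408 CPM per group and was called in no comparison. The largest neighbour value was that of Spry4, a feedback inhibitor of growth factor signalling, at -3.35 ± 0.14 for the difference of the segment effect, with 25.0 ± 0.449 CPM in D2, 12.8 ± 0.607 in B6, 7.76 ± 0.759 in D2-13B6 and 4.01 ± 0.792 in B6-13D2.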

How the data were processed

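The authors deposited expected counts, estimated read counts per Ensembl gene and library, made with EMASE per the table's title. Per the submitters' processing notes the tools included Bowtie 1.0.0 and edgeR 3.34.1 and the build was mm10; other settings are not given in the sources used here. Libraries came from an mRNA kit and were sequenced paired-end, per the labels' protocols. Symbols, positions and exons came from GENCODE M21 (GRCm38); 884 gene IDs were not found there and held 0.361% of reads. Expected counts were rounded and tested with edgeR 4.0.16 in R 4.3.3 (filterByExpr with a minimum count of 10, TMM, quasi-likelihood fit of 4 group means over 12 libraries, Benjamini-Hochberg adjustment over 17148 genes); the standard error is the absolute log2 fold change over the square root of F. Values under 1e-06 counts were read as 0. The tests were checked on simulated counts.

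The members and gene lists were chosen with earlier results of these data known. Members named are the C-type members, the 3 most abundant per cluster, and the highest and lowest called fold change per cluster and comparison; of other lists, the gene with the largest called change, and Taf7 and Slc25a2. The neural marker list is not reported here. Alternatives were DESeq2 1.42.0, RLE size factors, plain library totals, leaving out each library, a fit of the compared libraries alone, a replicate block, no low-count filter, a minimum mean CPM of 1 and a minimum log2 change of 1.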

Additional observations from a re-analysis of the deposited data

Results flagged for a closer look

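By an edgeR test of the difference itself, the segment effect was called different between the B6 and D2 backgrounds for 16 of the 19 named members. Pcdhac1, also among the 19, was not tested. The test sets both congenic groups against both parental groups, so a batch along that divide cannot be told apart from it. Some of the 16 were named for having the highest or lowest called fold change. In this test 33.4% of all tested genes were called lower and 31.1% higher, so nothing is read from the count. For all of the 16 but Pcdhgc4 the congenic groups in sum were lower than the parental groups. On the log2 scale the difference was -4.46 for Pcdha11 (ENSMUSG00000007440), -3.46 for Pcdha12 and -2.14 for Pcdhac2. In Pcdhb it was -2.24 for Pcdhb2, -3.36 for Pcdhb5, -2.48 for Pcdhb16, -2.56 for Pcdhb17, -3.26 for Pcdhb19, -1.56 for Pcdhb20 and -2.28 for Pcdhb22. In Pcdhg it was -2.83 for Pcdhga6, -2.46 for Pcdhgb6, -0.77 for Pcdhgb7, -1.97 for Pcdhgc3 and -1.65 for Pcdhgc5. All 10 fibroblast markers were called lower in the same test, with a median of -2.44 (range -2.89 to -0.85), and their part in these differences was not tested. Pcdhgc4 was the exception at 2.87, with 6.126 to 18.9 CPM in B6-13D2 and 0.777 to 2.42 in all other libraries. Leaving out 1 library moved the value of Pcdha11 to between -8.28 (without B6-13D2 replicate 2) and -1.44 (without B6 replicate 2, where the call was lost, as it was in DESeq2). Without B6-13D2 replicate 2 that group held 0 reads of Pcdha11, so the size of -8.28 is not fixed by reads. The call for Pcdhb2 was lost in DESeq2 and without B6 replicate 2, D2 replicate 1, B6-13D2 replicate 2, B6-13D2 replicate 3 or D2-13B6 replicate 1. Pcdha11 and Pcdhb2 entered the test only through their high D2 libraries and Pcdhb5 through its B6 libraries, so these 3 differences follow in part from the low-count filter.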

How the results depend on the processing

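The members called numbered 21 for D2 against B6, 31 for B6-13D2 against B6, 25 for D2-13B6 against D2 and 32 for the difference of the segment effect. Requiring a log2 fold change of at least 1 in size lowered the first to 1 and the third to 7. Leaving out 1 library gave 17 to 22, 28 to 31, 20 to 27 and 31 to 33. A replicate block gave 20, 31, 27 and 32, and replicate numbers did not pair the samples (mean correlation of deviations -0.011 over 18 pairs). In the order above, RLE size factors gave 26, 31, 25 and 33, no low-count filter 26, 34, 27 and 34, DESeq2 20, 30, 24 and 30, and a minimum mean CPM of 1 (28 members tested) 25, 25, 23 and 24. Fits of the compared libraries alone gave 23, 28 and 27 for the first 3. Without B6 replicate 3, the library labelled as another line, they were 19, 30, 26 and 32.

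As log2 ratios, the cluster totals moved by more than 1 SD with other scalings: Pcdhg in B6-13D2 against B6 from -0.88 to -0.82 (RLE) and -0.81 (plain totals), Pcdhg for the segment difference from -1.59 to -1.45 and Pcdhb from -2.47 to -2.33 (plain totals). Divided by the summed fibroblast markers, a scale chosen after seeing the data, Pcdhg turned to -0.065 for D2 against B6, 0.35 for B6-13D2 against B6, 0.19 for D2-13B6 against D2 and 0.55 for the segment difference; Pcdha moved to 0.018, -0.32, 0.14 and -0.18, and Pcdhb to 0.066, -0.41, 0.073 and -0.34 in that order. The cause was not tested.

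Values of named members changed sign in 4 cases: Pcdha11 (ENSMUSG00000007440) in B6-13D2 against B6 to 0.40 without B6 replicate 2 (leaving out single libraries gave -6.45 to 0.40), Pcdhgb8 in the same comparison to -0.094 without B6 replicate 3 (range -0.094 to 0.78), and Pcdhga12 in D2-13B6 against D2 to 0.0028 without D2 replicate 2 and to 0.050 without D2-13B6 replicate 3 (range -0.13 to 0.050). None of these was called in the full fit. Pcdha11 held 0 reads in B6-13D2 replicates 1 and 3, so the low end of its range has no firm size. Of the other settings for named members, 1173 kept direction and call, 47 lost a call and 31 gained one. Depth limits most Pcdha and 11 Pcdhb members, which were too low to test.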
